A study of Homo sapiens with 6 samples.

Results

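The 10 genes of secreted matrix proteins SPP1, SPARC, THBS1, THBS2, TNC, POSTN, FN1, EDIL3, TGFBI and CCDC80, were followed on 6 one-colour Affymetrix arrays, 3 per group. They were a list of 10 out of the 19775 genes that have a probe set of their own on this array, through all probe sets that the platform annotation assigns to one of them alone, 33 in number. The list was drawn up with the difference between the groups already known, so the values of the members below are a description of these arrays and carry no test. By its labels, the wtCopFry group was 231wCFry, 1 stable clone of MDA-MB-231 that carries a 10791 bp cDNA of wild-type Fry from the Copenhagen (COP) rat, placed in the pEGFP-N1 plasmid, grown out under puromycin. It was chosen for Fry at about the level of MCF10A, a line of normal mammary epithelium. The not_transfected group was labelled as MDA-MB-231 itself, an established, mesenchymal-like human breast cancer line without the oestrogen receptor. No clone with an empty vector is described in the labels, and the clone and the introduced Fry cannot be told apart. All samples were monolayers in the same serum-containing medium taken at 70% confluence, and the samples of each line differed in passage, though the passage of a sample is not given. How the samples of a line were otherwise separated is not stated, so p-values measure the spread between these samples, which may be partly technical. Values are MAS5 signals in arbitrary units, a linear brightness per probe set, and the number of arrays limits their precision.

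Matricellular proteins are secreted into the extracellular matrix, where they act less as building blocks than as adaptors: they bind collagen, fibronectin, growth factors and cell surface receptors, and change how strongly cells adhere, spread and migrate. In adult tissue most are scarce and are made in bulk during development, wound repair and around tumours, by stromal cells and in part by the tumour cells themselves. FN1, fibronectin, is itself a structural fibril of the matrix to which several of the others bind. In RNA from whole cultures, fewer cells of a type and less RNA per cell cannot be told apart.

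The arrays were first checked against their labels. Human FRY had 4 probe sets that read at most 9.8 on any array, and since the introduced cDNA is of rat they do not check the transgene. VIM, vimentin, stood at 3954 ± 521 in wtCopFry and 3463 ± 200 in not_transfected samples (SD, n = 3 each), with overlapping groups. KRT19, a keratin of simple epithelia, was at 1.1 ± 0.35 in wtCopFry and 1669 ± 43 in not_transfected samples, and SOX10, which marks neural crest derivatives, at 1395 ± 22 in wtCopFry and 0.43 ± 0.32 in not_transfected samples. Of 7 tested melanocyte and neural crest markers 6 rose and 0 fell, with a summed signal of 5016 to 5476 in wtCopFry against 386 to 471 in not_transfected samples. Nearly all of the wtCopFry sum was SOX10, S100B, MITF and ERBB3, and the pigment genes of the list were dim. MLANA read 35.5 ± 25.2 in wtCopFry and 1.0 ± 0.52 in not_transfected samples, and TYR 25.5 ± 8.61 and 1.67 ± 1.59. PMEL read 5.17 ± 2.67 and 10.8 ± 5.63 and did not pass, and TYRP1, at 7.0 ± 2.95 and 1.13 ± 0.64, was not tested. Of 8 tested breast epithelial markers 0 rose and 7 fell, and their sum was 1880.3 to 2020 in wtCopFry against 7892 to 8652 in not_transfected samples. Among markers of fibroblasts, a main source of these proteins in tissue, 4 of 7 tested rose and 3 fell, with a sum of 1045 to 1178 in wtCopFry against 387 to 469 in not_transfected samples, and COL3A1 and DCN read at most 6.8 on any array by their probe sets with the highest mean. Endothelial markers summed to 23.7 to 41.8 in wtCopFry against 186 to 289 in not_transfected samples, with 1 of 3 tested rising and 2 falling, and leukocyte markers to 19.0 to 28.8 against 26.3 to 33.9, with 1 of 2 rising and 1 falling. Some sums rested mainly on 1 gene, named after the values were seen. COL1A2 gave most of the fibroblast sum in wtCopFry samples (831 ± 48), while COL1A1, LUM and PDGFRB fell. PECAM1 gave most of the endothelial sum in not_transfected samples (210 ± 58). KRT18 gave most of the breast epithelial sum in wtCopFry samples (1507 ± 56). Of the mesenchymal genes typical of MDA-MB-231, 1 of 8 rose and 5 fell, with a sum of 13783 to 16990 in wtCopFry against 18652 to 21217 in not_transfected samples. As a measure of RNA integrity, GAPDH signal at the 3' end over that at the 5' end was 1.24 to 1.33 on wtCopFry arrays and 1.36 to 1.39 on not_transfected arrays. The ratio for ACTB was 2.45 to 2.65 on wtCopFry arrays and 2.59 to 3.004 on not_transfected arrays, with overlap. The part of these differences in the results was not tested. The labels call both groups MDA-MB-231, and the levels of KRT19, SOX10 and, chosen after their values were seen, S100B (1770.1 ± 93.3 in wtCopFry and 0.7 ± 0.87 in not_transfected samples) and PLAU (6.2 ± 0.92 in wtCopFry and 2579 ± 392.2 in not_transfected samples) put that shared label in doubt. Every difference below is therefore one between arrays labelled wtCopFry and arrays labelled not_transfected, and whether both come from the same line was not tested.

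Across the array most genes differed, which sets the scale for every count. On log2(signal + 16), in a limma fit of 32768 probe sets that passed a filter on low values, 30.2% of probe sets were higher in wtCopFry samples and 32.2% lower at a Benjamini-Hochberg adjusted p under 0.05. The groups did not overlap in 32.6% of probe sets with wtCopFry higher and in 34.6% with wtCopFry lower. Of 13606 genes, each read by its tested probe set with the highest mean, 33.9% were called higher and 32.9% lower, and 36.9% and 36% were separate between the groups in these directions. Of the 33 member probe sets 29 passed the filter, and the same fit called 15 of them higher and 7 lower. Without the probe sets whose names carry _s_, _x_ or _a_, which are prone to cross-hybridise, 7 were called higher and 4 lower. Of all genes, 3594 were then called higher and 3582 lower, against 4616 and 4483 with those probe sets. At the gene level, 6 of the 9 members with a tested probe set were higher without overlap, 2 were lower without overlap and THBS1 overlapped. The members were listed with this contrast known, so these counts show nothing beyond their own values. The median log2 difference of the 9 tested members was 0.51, or 0.47 with POSTN included, and that of all genes tested was 0.01. For the same reason the medians of the members are only a description.

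**Figure D1:**
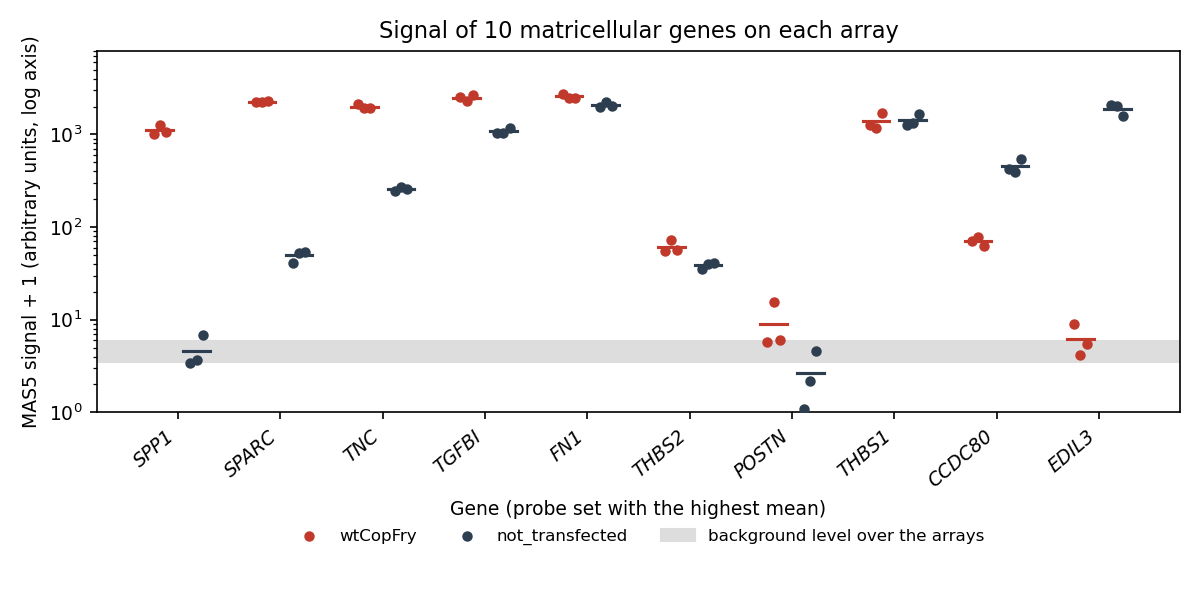
Signal of the 10 matricellular genes on each array, as MAS5 signal + 1 on a log axis, with 3 wtCopFry arrays (red) left of 3 not_transfected arrays (dark) for each gene; bars are group means and the grey band is the background level of 2.5 to 4.9 over the arrays. SPP1 and EDIL3 lie far apart in opposite directions, and the groups of THBS1 overlap.

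The windows just before the start of 5 members are shown here, because these genes span the whole range of differences, with SPP1, SPARC and TNC much higher in wtCopFry samples, THBS1 overlapping and EDIL3 much lower. They are the 250 bases before the annotated start in RefSeq on GRCh38.p14, 5′ to 3′ along the gene, for SPP1 (chr4:87975464-87975713, plus strand), SPARC (chr5:151686916-151687165, minus strand), TNC (chr9:115118158-115118407, minus strand), THBS1 (chr15:39580829-39581078, plus strand) and EDIL3 (chr5:84384881-84385130, minus strand). Capitals mark matches on either strand to GGAATG, the core of sites bound by TEAD factors, to TATANA, the promoter element bound by the TBP protein, and to TGANTCA, an AP-1 site.
SPP1: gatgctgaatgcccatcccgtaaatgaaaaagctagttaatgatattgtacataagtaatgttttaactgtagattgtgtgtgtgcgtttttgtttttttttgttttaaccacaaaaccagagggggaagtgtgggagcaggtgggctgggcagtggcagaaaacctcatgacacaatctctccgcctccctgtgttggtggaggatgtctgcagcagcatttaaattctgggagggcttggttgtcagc
SPARC: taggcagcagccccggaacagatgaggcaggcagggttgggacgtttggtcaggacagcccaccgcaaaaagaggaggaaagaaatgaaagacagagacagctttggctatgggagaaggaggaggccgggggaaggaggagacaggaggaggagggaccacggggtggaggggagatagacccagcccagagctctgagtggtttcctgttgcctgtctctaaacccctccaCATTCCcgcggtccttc
TNC: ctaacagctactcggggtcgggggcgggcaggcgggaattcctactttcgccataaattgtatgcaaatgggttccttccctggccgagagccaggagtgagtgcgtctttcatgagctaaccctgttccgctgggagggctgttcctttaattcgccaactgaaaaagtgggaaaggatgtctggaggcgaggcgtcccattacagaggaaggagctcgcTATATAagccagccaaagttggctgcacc
THBS1: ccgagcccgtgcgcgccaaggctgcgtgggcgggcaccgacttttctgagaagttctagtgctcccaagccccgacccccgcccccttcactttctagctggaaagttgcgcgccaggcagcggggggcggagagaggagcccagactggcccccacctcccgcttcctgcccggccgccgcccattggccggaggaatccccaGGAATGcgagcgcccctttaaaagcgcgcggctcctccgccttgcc
EDIL3: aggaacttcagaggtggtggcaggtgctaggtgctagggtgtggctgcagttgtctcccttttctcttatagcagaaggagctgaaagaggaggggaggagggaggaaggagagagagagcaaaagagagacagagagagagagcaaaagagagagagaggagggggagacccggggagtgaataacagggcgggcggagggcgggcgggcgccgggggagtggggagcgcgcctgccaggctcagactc
All 10 members matched an entry of the RefSeq promoter table. GGAATG was found in 3 of 10 members, SPARC, THBS1 and THBS2, and in 11.9% of all 35116 promoters of the same length. TATANA was found in 4 of 10, in TNC and THBS2 24 to 29 bases before the start, in POSTN both close to the start and further upstream, and in CCDC80 241 to 246 bases before the start, and in 17.7% of all promoters. In TNC the matched letters read the same on both strands, and in POSTN the matches near the start overlap each other. TGANTCA was found in POSTN alone, and in 6.57% of all promoters. Of 3 further motifs, GGGCGG, the GC box, was in 5 of 10 members and 42.6% of all promoters, CCAAT in 2 of 10 and 32% of all, and ACAANG, a core of SOX sites, in 0 of 10 and 30.9% of all. The window of SPP1 held none of the 6 motifs, and that of EDIL3 held only the GC box. A match is only a run of letters, and binding was not measured.

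The bone and tumour phosphoprotein osteopontin, encoded by SPP1, had the largest positive difference among the members on the log2(signal + 16) scale. Its probe set with the highest mean read 1011.8, 1248 and 1059 in wtCopFry samples, against 2.4, 2.7 and 5.8 in not_transfected samples. Every wtCopFry array stood far above every not_transfected array, and only 1 not_transfected array was above the background level, taken on each array as the highest of 27 unspiked bacterial control probe sets. The log2 difference was 5.84, with means of 1106 ± 125 and 3.63 ± 1.88 (SD, n = 3 each). A further probe set of SPP1 read 418, 569.9 and 507 in wtCopFry samples and 0.7, 2.0 and 3.2 in not_transfected samples, where no array was above background. Against the background level it was at least 144-fold higher in wtCopFry samples. This probe set is of the _x_ kind, prone to cross-hybridise, and the other one is of the _s_ kind.

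SPARC, a calcium-binding protein that binds collagen and counters cell spreading, was higher as well. It read 2214, 2245 and 2289 in wtCopFry samples, against 40.2, 51.9 and 53.0 in not_transfected samples. All 6 arrays were above background, so the ratio of the means is measured on both sides: 2249 ± 38 in wtCopFry over 48.4 ± 7.09 in not_transfected samples, or 46.5-fold (log2 difference 5.14). Its other probe set gave 308, 375 and 300.3 in wtCopFry samples against 4.4, 6.1 and 3.0 in not_transfected samples, and the groups were again far apart (log2 difference 4.06). By the probe set with the highest mean, SPARC varied least of the tested members between the wtCopFry arrays, with an SD of 0.02 on the log2 scale, where the median over all tested probe sets was 0.11.

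TNC encodes tenascin-C, a large hexameric protein that interferes with adhesion to fibronectin. Its signal was 2117, 1932 and 1948 in wtCopFry samples, against 244, 267 and 254 in not_transfected samples. The groups were separate by a wide gap, although the not_transfected samples were also well above background, and the ratio of the means was 7.84 (1999 ± 102 over 255 ± 12, log2 difference 2.89). Both other TNC probe sets were dim. One read 35.9, 32.5 and 36.7 in wtCopFry samples and at most 2.0 in not_transfected samples, at least 10.2-fold higher, and the other 28.3, 17.9 and 17.2 against 3.1, 3.6 and 3.3.

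TGFBI, a protein named for its induction by TGF-beta that binds collagen and integrins, and POSTN, periostin, are built of the same kind of FAS1 domains but were read very differently. TGFBI stood at 2548, 2322 and 2634 in wtCopFry samples, against 1039.9, 1043 and 1158 in not_transfected samples. The groups did not overlap, and the ratio of the means was 2.32 (2501 ± 161 and 1080.2 ± 67, log2 difference 1.20). POSTN was dim throughout. Its 4 probe sets all failed the filter on low values, and the one with the highest mean read 4.7, 14.6 and 5.0 in wtCopFry samples and 0.1, 1.2 and 3.6 in not_transfected samples. The wtCopFry values were above the background level on all 3 arrays and the not_transfected values on 1, so no fold is given, and the remaining 3 POSTN probe sets read at most 2.8 on any array.

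FN1, which encodes fibronectin, the fibril-forming ligand of several integrins, was bright in both groups. The probe set with the highest mean read 2719, 2486 and 2501 in wtCopFry samples, against 1979.9, 2222 and 2012 in not_transfected samples. The groups did not overlap, but the gap between them was small beside that of SPP1 or SPARC: 2569 ± 130 over 2071 ± 131, or 1.24-fold (log2 difference 0.31). The 3 other bright probe sets gave 1.25-fold to 1.38-fold and were separate too. Of 3 dim FN1 probe sets, 1 had overlapping groups at 25.5 ± 2.52 in wtCopFry and 20.4 ± 6.10 in not_transfected samples. The others gave 37.2, 50.3 and 33.9 in wtCopFry against 7.7, 11.6 and 7.9 in not_transfected samples (4.46-fold), and 35.1, 22.7 and 33.8 against 14.0, 14.7 and 7.3 (2.54-fold). The dim probe sets that separated thus gave larger ratios than the bright ones, and which transcript forms they read was not determined.

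**Figure D2:**
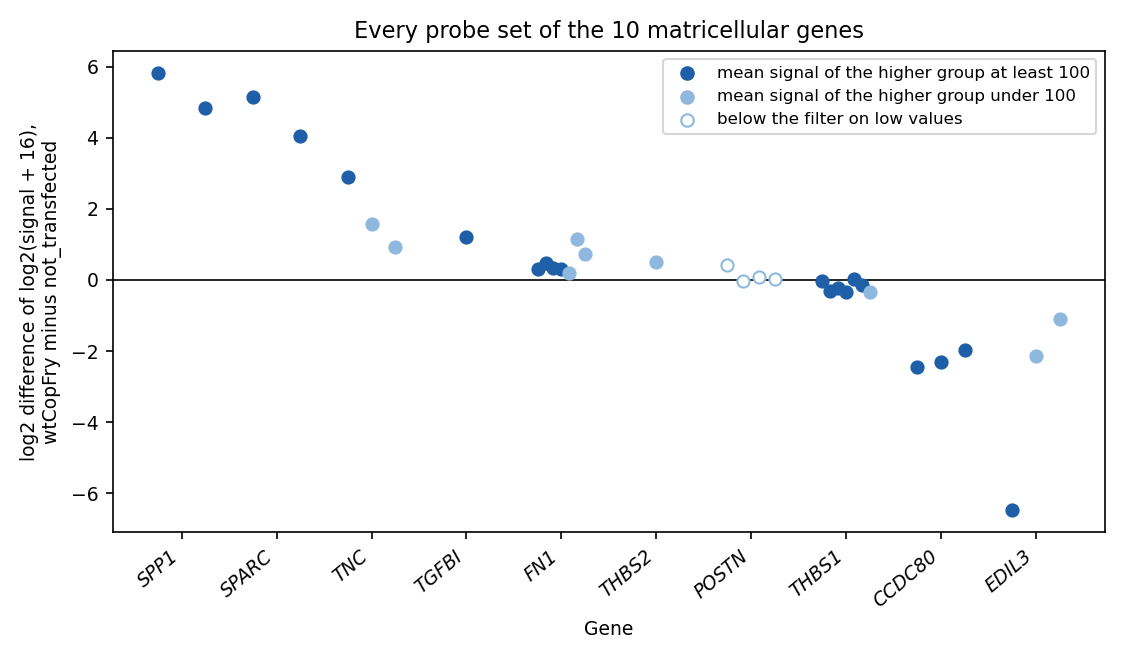
Log2 difference, wtCopFry minus not_transfected on log2(signal + 16), of each of the 33 probe sets of the 10 genes; dark points have a mean of at least 100 in the higher group, pale points a lower one, and open points fell below the filter. All probe sets of SPP1, SPARC, TNC and FN1 lie above 0, all of CCDC80 and EDIL3 below 0, and those of THBS1 between -0.35 and 0.03.

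The thrombospondins among the members, trimeric glycoproteins that bind CD47, CD36 and integrins, divided into THBS1, bright in both groups, and THBS2, dim in both. THBS1 can release TGF-beta from its latent form. THBS1 read 1266.5, 1170.5 and 1721 in wtCopFry samples, against 1273, 1312 and 1673 in not_transfected samples. The highest and the lowest of the 6 values both belonged to wtCopFry samples, and the means were 1386 ± 294 and 1419 ± 221 (log2 difference -0.04). Without wtCopFry array 3 the remaining 5 values did not overlap, with wtCopFry lower (log2 difference -0.21). Groups overlapped for each of the 7 THBS1 probe sets, whose log2 differences ran between -0.35 and 0.03, and the fit called 1 of them lower and none higher. The single THBS2 probe set read 53.9, 72.1 and 55.6 in wtCopFry samples and 34.2, 38.6 and 39.7 in not_transfected samples. These groups were separate at a low level, 60.5 ± 10.1 over 37.5 ± 2.91 or 1.61-fold (log2 difference 0.51).

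On the probe set with the highest mean, THBS1 varied more between the arrays of a group than between the groups. Not_transfected array 2 was the lowest of its group for 6 of the 7 THBS1 probe sets, and wtCopFry array 2 for 5 of 7, while array 3 was the highest of its group for 5 of 7 in both. Probe sets of 1 gene share their RNA and are not independent. CCN1 and CCN2, matricellular proteins of the CCN family examined for this pattern after their values were seen, had the same arrays at the extremes. CCN1 read 2032.5, 1607.5 and 2340.3 in wtCopFry samples and 2594, 2342 and 2969 in not_transfected samples, and CCN2 374.5, 344 and 535 against 1480.0, 1179 and 1597. In each group of these 3 genes array 2 was thus low and array 3 high, except that array 1 was lowest for THBS1 in not_transfected samples on the probe set with the highest mean.

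**Figure D3:**
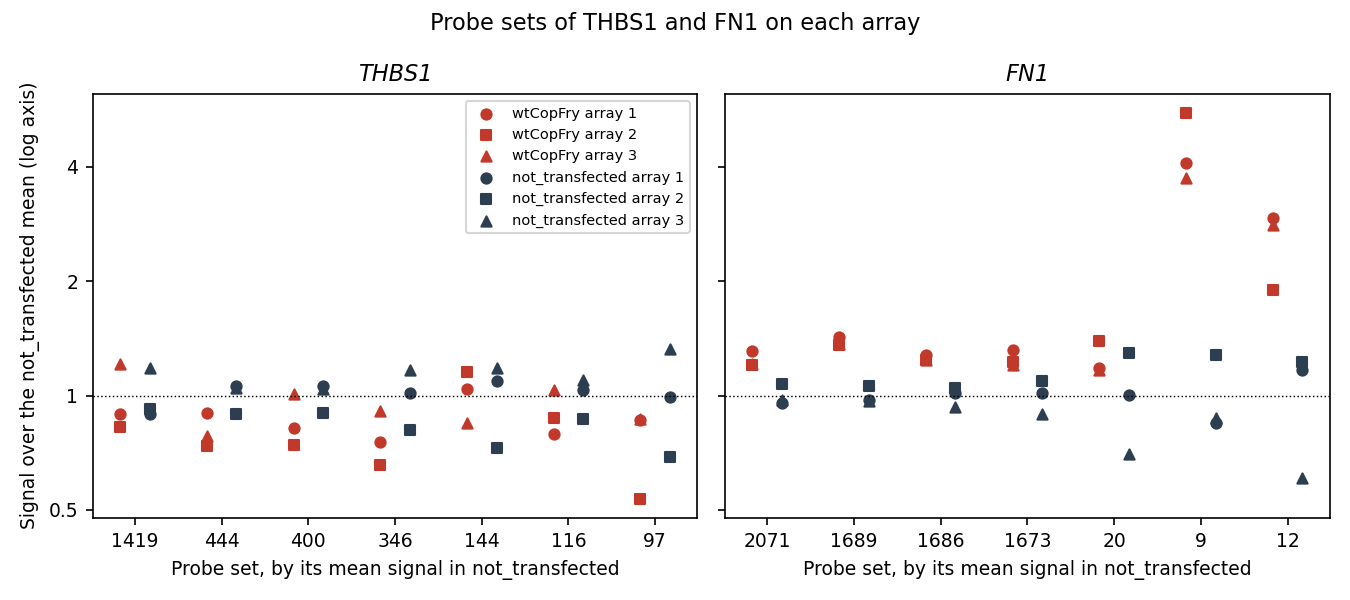
Signal of each THBS1 (left) and FN1 (right) probe set on each array, divided by that probe set's not_transfected mean, on a log axis; red marks are wtCopFry and dark marks not_transfected arrays, the marker shape is the array's number in the labels, and the x axis gives the not_transfected mean signal. The THBS1 groups overlap throughout, and the 4 bright FN1 probe sets sit a little above 1 in wtCopFry samples.

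EDIL3 and CCDC80 were the members with lower signal in wtCopFry samples. EDIL3, also called DEL1, is a secreted protein that binds integrin alpha-v beta-3 through an RGD motif and is best known from endothelial cells. It read 8.1, 3.2 and 4.5 in wtCopFry samples, against 2086, 2039.9 and 1575 in not_transfected samples. Every wtCopFry array was near the background level and 1 of them below it, so no fold is given; the log2 difference was -6.49, with means of 5.27 ± 2.54 and 1900.1 ± 283. A dimmer probe set read 1.6, 2.4 and 2.4 in wtCopFry samples, none above background, and 37.7, 75.9 and 85.4 in not_transfected samples, at least 17.8-fold lower in wtCopFry samples. The third EDIL3 probe set gave at most 3.7 in wtCopFry and at least 24.2 in not_transfected samples. All 3 probe sets thus placed the groups the same way.

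CCDC80 encodes a secreted protein that binds matrix and is known from adipose tissue, where it is also called URB or DRO1. It read 70.6, 76.4 and 61.6 in wtCopFry samples, against 422, 395 and 539 in not_transfected samples. The groups were separate and both above background, with 69.5 ± 7.46 in wtCopFry and 452 ± 77 in not_transfected samples, 6.50-fold lower in wtCopFry (log2 difference -2.44). The other CCDC80 probe sets gave 26.4, 39.1 and 34.6 against 221.5, 201.5 and 265, and 18.2, 17.3 and 7.1 against 103.9, 83.5 and 115.6, with wtCopFry values first. These ratios of 6.87 and 7.11 were close to the first, so the 3 probe sets differed little in the size of the difference.

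The relatives of these genes were then counted over a list of 30 further matricellular genes, chosen by family and tested in the same fit. This list and the later ones of receptors, matrix partners and TGF-beta axis genes were chosen with earlier results of these data known. Their counts, medians and p-values are therefore no independent test. Of 17 tested, 8 rose, 5 fell and 4 did not pass, with a median log2 difference of 0.17, against 33.9% of all genes called higher and 32.9% lower. All probe sets were at or below background on every wtCopFry array for 8 of the 30 genes, and on every not_transfected array for 6. The proteoglycan SPOCK1, of the SPARC family, rose to 1051 ± 34 in wtCopFry samples, against 12.1 ± 1.05 in not_transfected samples (log2 difference 5.25, SE 0.09, limma adjusted p = 2.13e-10). CCN3, a CCN protein known from the nervous system and bone, rose to 1289 ± 36, against 81 ± 8.89 (3.75, SE 0.10, adjusted p = 2.03e-09). In the other direction FSTL1, a secreted glycoprotein related to SPARC, fell to 13.4 ± 7.90 in wtCopFry samples, against 1637 ± 48 in not_transfected samples (-5.84, SE 0.16, adjusted p = 3.27e-09). PXDN, peroxidasin, which cross-links collagen IV, was at least 217-fold lower, at 2.23 ± 1.33 against 764 ± 57 (-5.42, SE 0.10, adjusted p = 3.40e-10). By the median over a gene's tested probe sets FSTL1 was at -3.44 and PXDN at -4.53, both still called lower. The SPARC family thus held genes that moved in both directions.

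Some relatives of the members were read next, picked after their values were seen. Other close relatives were dim on every array by their probe sets with the highest mean. THBS4 read at most 6.5, COMP 8.3, TNN 3.1, TNR 7.5, SPARCL1 2.1 and IBSP 8.3. THBS3, a pentameric thrombospondin, rose to 93.3 ± 6.87 in wtCopFry samples, against 20.5 ± 0.95 in not_transfected samples (log2 difference 1.58, limma adjusted p = 4.22e-07). MFGE8, which has the same domain types as EDIL3, rose to 402 ± 71, against 259 ± 16 (0.59, adjusted p = 0.0035), while EDIL3 was lower. SRPX and SRPX2, which share a domain with CCDC80, rose as well, SRPX to 1971 ± 107 against 719 ± 66 (1.44, adjusted p = 1.67e-06) and SRPX2 to 440.4 ± 43.8 against 60.5 ± 11.5 (2.58, adjusted p = 1.52e-07). EDIL3 and CCDC80 thus stood on the opposite side from these relatives. CCN2, a TGF-beta- and YAP-responsive protein also called CTGF, fell to 418 ± 103, against 1419 ± 215 (-1.74, adjusted p = 1.88e-05). CCN1, or CYR61, was lower in the same fit at 1993 ± 368 against 2635 ± 316 (-0.41, adjusted p = 0.035), but the call was lost without wtCopFry array 1 (adjusted p = 0.061), wtCopFry array 2 (0.125), not_transfected array 1 (0.073) or not_transfected array 3 (0.111).

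**Figure D4:**
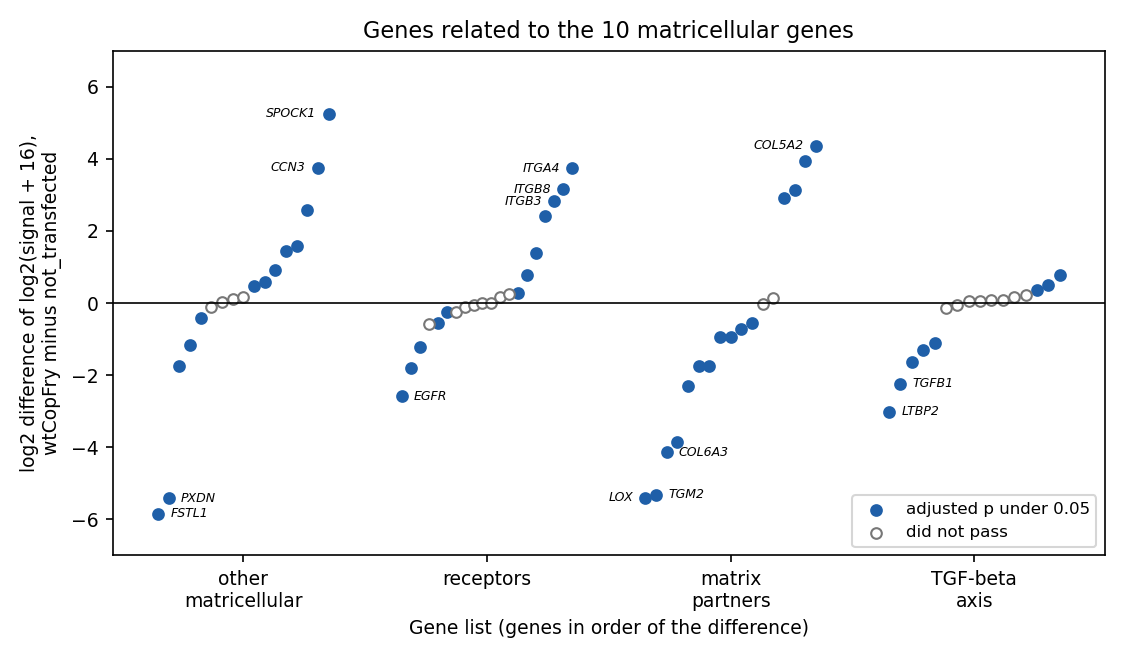
Log2 difference, wtCopFry minus not_transfected on log2(signal + 16), of each tested gene in 4 lists of related genes, ordered within a list; filled points had an adjusted p under 0.05 in limma and open points did not pass. Of the 20 tested receptors 7 rose and 5 fell, of the 17 tested matrix partners 4 rose and 11 fell. Of all genes, 33.9% were called higher and 32.9% lower.

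Cells sense matricellular proteins mainly through integrins, which are pairs of an alpha and a beta chain, and through CD44, CD47, CD36 and syndecans. Of 20 tested receptor genes 7 rose, 5 fell and 8 did not pass, with a median log2 difference of 0.01. Of all genes, 33.9% were called higher and 32.9% lower. ITGB3, the beta chain that with alpha-v binds osteopontin, EDIL3 and periostin, rose to 216 ± 39 in wtCopFry samples, against 16.6 ± 4.11 in not_transfected samples (log2 difference 2.82, SE 0.14, limma adjusted p = 1.61e-07). ITGA4, an alpha chain of receptors for fibronectin and osteopontin, rose to 424 ± 22, against 16.8 ± 1.20 (3.74, SE 0.09, adjusted p = 1.21e-09). ITGA9, another osteopontin and tenascin-C receptor chain, named after its values were seen, rose to 111 ± 33 against 7.43 ± 3.97 (2.42, adjusted p = 4.56e-06). ITGB8, which pairs with alpha-v and activates TGF-beta, rose to 191 ± 5.04, against 7.2 ± 1.37 (3.16, SE 0.09, adjusted p = 3.56e-09), and ITGB5 to 2694 ± 162, against 1558 ± 73 (0.78, SE 0.09, adjusted p = 5.97e-05). The size of these differences depended on the probe set. By the median over a gene's tested probe sets they were 0.65 for ITGB3, 0.84 for ITGB8 and 0.43 for ITGB5. The same median gave 2.96 for ITGA4 and 1.501 for ITGA9. Without probe sets prone to cross-hybridise ITGB3 was at 0.67 and ITGB5 at 0.27, and the other chains kept their values. All 5 were still called higher in both alternatives. These 5 integrin chains were higher in the samples in which SPP1 and TNC were higher, but others were lower. ITGA3, an alpha chain of laminin receptors, and ITGA2, of a collagen receptor, both named after their values were seen, fell. ITGA3 read 230.2 ± 9.27 in wtCopFry and 839.7 ± 21.0 in not_transfected samples (-1.80, limma adjusted p = 1.23e-07), and ITGA2 read 208 ± 15 in wtCopFry and 508 ± 59 in not_transfected samples (-1.22, adjusted p = 9.68e-06). EGFR, a receptor that tenascin-C repeats can bind, fell to 45.0 ± 2.50, against 352 ± 39 (-2.59, SE 0.10, adjusted p = 3.50e-08). By the median over its tested probe sets EGFR was at -1.98.

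The other receptors described here were bright in both groups, CD36 excepted. ITGA5, the alpha chain of the main fibronectin receptor, fell to 606 ± 79 in wtCopFry samples, against 898 ± 27 in not_transfected samples (log2 difference -0.56, SE 0.11, limma adjusted p = 0.0014). ITGAV did not pass at 1264 ± 91 against 1055 ± 122 (0.26, adjusted p = 0.066), and it passed without not_transfected array 2 (adjusted p = 0.037). ITGB1, the partner of alpha-5, did not pass on its probe set with the highest mean, at 3334 ± 209 in wtCopFry against 3617 ± 407 in not_transfected samples (-0.11, adjusted p = 0.39), but 2 of its 5 tested probe sets were called lower. CD44, a hyaluronan and osteopontin receptor, was called higher at 3703 ± 359 against 3052 ± 173 (0.27, adjusted p = 0.040). That call was lost without wtCopFry array 1 (adjusted p = 0.073), wtCopFry array 3 (0.131), not_transfected array 1 (0.122) or not_transfected array 2 (0.077). CD47, a thrombospondin receptor, was called lower at 1113 ± 45 against 1324 ± 71 (-0.25, adjusted p = 0.037), and that call was lost without wtCopFry array 1 (adjusted p = 0.115), wtCopFry array 2 (0.088), not_transfected array 1 (0.071) or not_transfected array 2 (0.116). Without wtCopFry array 3 another CD47 probe set had the highest mean and stood for the gene, with a log2 difference of -0.88, so that this value is not of the same probe set. All 7 of its tested probe sets were called lower with all arrays, while 7 of 11 probe sets of CD44 were called higher. CD36 was dim in both groups at 6.27 ± 2.81 and 10.3 ± 4.43 (-0.24, adjusted p = 0.17), and SDC4, a syndecan that acts with integrins on fibronectin, read 2008 ± 79 in wtCopFry and 1993 ± 95 in not_transfected samples (0.01, adjusted p = 0.93).

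**Figure D5:**
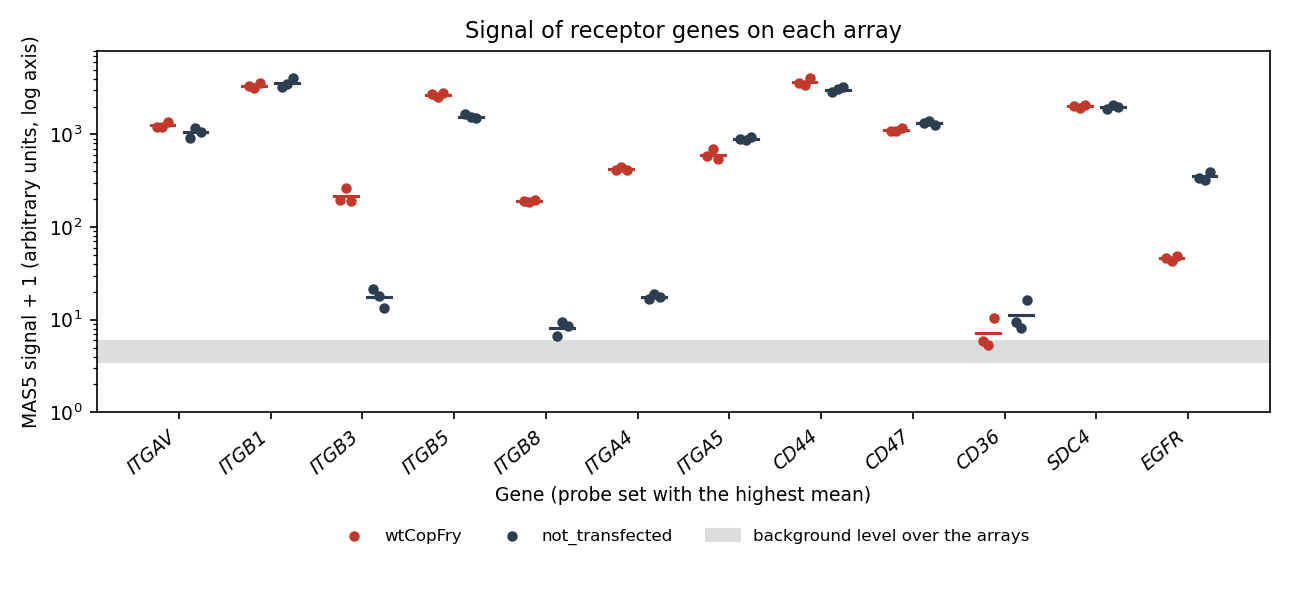
Signal of 12 receptor genes on each array, as MAS5 signal + 1 on a log axis, with 3 wtCopFry arrays (red) left of 3 not_transfected arrays (dark) for each gene; bars are group means and the grey band is the background level of 2.5 to 4.9. ITGB3, ITGB8 and ITGA4 are higher in wtCopFry samples, EGFR is lower, and SDC4 and ITGB1 overlap.

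Matrix proteins and enzymes that bind or process the members were counted in the same way. Of 17 tested matrix partner genes 4 rose, 11 fell and 2 did not pass, with a median log2 difference of -0.94, against 33.9% of all genes called higher and 32.9% lower. Without probe sets prone to cross-hybridise 1 rose and 7 fell. LOX, lysyl oxidase, which cross-links collagen and to which fibronectin and periostin bind, fell to 3.93 ± 0.74 in wtCopFry samples, against 826 ± 81 in not_transfected samples (-5.40, SE 0.10, limma adjusted p = 3.40e-10). TGM2, a transglutaminase that cross-links fibronectin and osteopontin, fell to 26.1 ± 4.20, against 1662 ± 52 (-5.32, SE 0.10, adjusted p = 3.43e-10), and COL6A3, a collagen VI chain, to 5.27 ± 2.42, against 359 ± 34 (-4.14, SE 0.11, adjusted p = 3.04e-09). COL5A2, a collagen V chain, was among those that rose, to 600.1 ± 43.9 against 13.9 ± 0.98 (4.36, SE 0.09, adjusted p = 6.39e-10). The size of the falls depended on the probe set. By the median over a gene's tested probe sets TGM2 was at -2.02 and LOX at -3.61, both still called lower. Collagen genes thus moved in both directions.

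TGF-beta induces several of these genes, TGFBI by name, and THBS1 and alpha-v integrins take part in its activation. Of 16 tested genes of this axis 3 rose, 5 fell and 8 did not pass, with a median log2 difference of 0.06. Of all genes, 33.9% were called higher and 32.9% lower. TGFB1, a ligand, fell to 9.6 ± 1.91 in wtCopFry samples, against 105 ± 17 in not_transfected samples (-2.23, SE 0.12, limma adjusted p = 3.10e-07). The ligand genes TGFB2 and TGFB3 were named after their values were seen. TGFB2 was brighter in both groups and fell to 835 ± 79, against 1819 ± 238 (-1.10, adjusted p = 3.66e-05), with all 5 tested probe sets called lower. TGFB3 was dim and did not pass, with means of 27.3 in wtCopFry and 32.4 in not_transfected samples (-0.12, adjusted p = 0.58). LTBP2, a matrix protein related to the latent TGF-beta binding proteins, fell to 19.2 ± 4.62, against 268 ± 37 (-3.01, SE 0.13, adjusted p = 7.03e-08). Of the receptors, TGFBR2 fell to 760.1 ± 28.8, against 1888 ± 107 (-1.29, SE 0.09, adjusted p = 1.68e-06), and TGFBR3 to 59.9 ± 2.40, against 225 ± 67 (-1.63, SE 0.18, adjusted p = 4.30e-05). By the median over a gene's tested probe sets LTBP2 was at -2.70, TGFBR2 at -0.89 and TGFBR3 at -1.08, all still called lower. The genes of this axis that rose, named after their values were seen, were LTBP3 (log2 difference 0.77), SMAD4 (0.51) and FURIN (0.37). Of the 4 tested SMAD4 probe sets 1 was called higher and 1 lower. Genes of the axis thus moved in both directions, and any tie to the level of TGFBI was not tested.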

How the data were processed

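Total RNA (40 ng per sample) was amplified and labelled with biotin, per the labels' protocols, and read on 1-colour Affymetrix arrays with 54675 probe sets, 1 array per sample. The authors deposited linear signal intensity values; MAS5 is named in the submitters' processing notes, and its version is not given in the sources used here. Without the 2% lowest and highest values, every array averaged 150, and values near background run down to 0. Gene names are GEO's platform annotation, checked through Entrez identifiers against a RefSeq table of GRCh38.p14, which changed 0 symbols; 41091 probe sets named 1 gene, of which 41037 matched that table.

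Here, intensities were expressed as log2(signal + 16), a scale that shrinks differences of dim genes, without further normalization. Probe sets other than 62 controls were tested at or above the 40th percentile of the mean log2 value (a signal of 5.62) in limma 3.58.1 (R 4.3.3; functions lmFit and eBayes) without covariates, and p-values were adjusted over all of them. Where a gene had several tested probe sets, the one of highest mean log2 value stood for it. The members and gene lists were chosen with earlier results of these data known. The text names the members, fixed receptors and markers, and up to 4 genes per list with the largest difference among those that passed, were separate and reached a mean of 100; genes named outside this rule are marked. The fit was tested on simulated data. Alternatives were other pseudocounts (1 and 64), no filter or a 60th percentile filter, quantile normalization, exclusion of probe sets prone to cross-hybridise, the median over a gene's probe sets, a replicate block, and leaving out each array. Promoter windows were taken from RefSeq. Figures were drawn with matplotlib 3.10.9.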

Additional observations from a re-analysis of the deposited data

How the results depend on the processing

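Of 192 alternative counts (over members, the 4 lists and all genes), 186 stayed within 1.5 times the value given above. The other 6 arose when probe sets prone to cross-hybridise were left out, which removes probe sets from the count: then 7 member probe sets were called higher and 4 lower, 5 of the other matricellular genes rose, 1 matrix partner rose and 7 fell, and 1 gene of the TGF-beta axis rose. Leaving out 1 array gave 13 to 15 member probe sets called higher and 6 to 9 lower. In these fits 4173 to 4514 of all genes were called higher and 4094 to 4295 lower, against 4616 and 4483 with all arrays. The log2 difference of the members kept its sign for the tested members except THBS1 (-0.35 to 0.08) in 13 alternatives, or 12 for SPP1, which has no probe set left without those prone to cross-hybridise, and ranged from 4.11 to 7.97 for SPP1, 4.06 to 5.52 for SPARC, 1.40 to 2.97 for TNC, 1.16 to 1.25 for TGFBI, 0.20 to 0.36 for FN1, 0.29 to 0.67 for THBS2, -2.68 to -1.94 for CCDC80 and -8.31 to -2.04 for EDIL3. The extremes for SPP1 came from the pseudocounts and those for EDIL3 from pseudocount 1 and the median over probe sets, so the log2 size of genes at background in a group has no settled value. Beyond the arrays named above, the calls of CD44 (pseudocount 1, adjusted p = 0.070), CD47 (pseudocount 1, 0.053) and CCN1 (pseudocount 1, 0.083, and no filter, 0.066) were lost. ITGAV passed with a pseudocount of 64, a 60th percentile filter and the median over probe sets (adjusted p = 0.031 to 0.050), ITGB1 with that median (-0.86, adjusted p = 1.91e-05) and VIM with quantile normalization (adjusted p = 0.034). The cause of these changes was not tested.

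The replicate numbers of the labels do not pair the samples by any stated source. Deviations of same-numbered arrays from their group means correlated at 0.07, 0.07 and 0.19, and 4 of the 6 arrays correlated best with their own number. With the replicate number as a block, 15 member probe sets were called higher and 9 lower, 8 other matricellular genes rose and 5 fell, 7 receptors rose and 4 fell, and CD47 no longer passed (adjusted p = 0.054). Of all genes, 4647 were called higher and 4515 lower with the block, against 4616 and 4483 without it.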
